A study of Mus musculus with 6 samples.

Results

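The Ly6 genes of chromosome 15 were examined in LPS-treated macrophages with and without knockdown of PGAM5. The 8 genes Ly6d, Ly6k, Ly6e, Ly6i, Ly6a, Ly6c1, Ly6c2 and Ly6g were taken by symbol from the GENCODE M21 annotation of GRCm38, out of 54532 genes listed in each library. The family was chosen by the FPKM of its members in these same control and PGAM5 KD libraries, so the differences of the 8 genes between the groups are a description and carry no p-values. Both groups were iBMDMs, macrophages grown from mouse bone marrow and immortalized with retroviruses that carry v-raf and v-myc, and both received LPS at 100 ng/ml for 4 hours. Control cells were infected with a lentivirus for a control shRNA and PGAM5 KD cells with a lentivirus for an shRNA against Pgam5, with 3 libraries per group. No library of resting cells was used, and induction by LPS itself was not measured. Whether the replicates were separate cultures or infections is not stated, and the spread between them may be technical. Each group has its own lentivirus, so an effect of PGAM5 and a difference between the infected lines cannot be told apart.

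Ly6 proteins are small, cysteine-rich surface proteins with a finger-like fold shared with the urokinase receptor. Most are held in the outer leaflet of the plasma membrane by a glycosylphosphatidylinositol (GPI) anchor. Immunologists use several of them as cell markers. Ly6C, encoded by Ly6c1 and Ly6c2, marks inflammatory monocytes, Ly6G marks neutrophils, and Ly6A, also called Sca-1, marks stem and progenitor cells and activated lymphocytes. Ly6D marks early B lineage cells, and Ly6k is known from the male germ line. Ly6e is made in many cell types, is induced by type I interferon, and is known to restrict or promote the entry of several viruses. Ly6a and Ly6c also respond to interferons in many mouse cells.

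The sequences of the family are shown because they bear on how far a fragment could be assigned to a given gene. The coding sequence of Ly6e, the member with nearly all of the fragments, is 411 bases long with its stop codon in GENCODE M21 (GRCm38), and its opening 300 bases read as follows.
Ly6e: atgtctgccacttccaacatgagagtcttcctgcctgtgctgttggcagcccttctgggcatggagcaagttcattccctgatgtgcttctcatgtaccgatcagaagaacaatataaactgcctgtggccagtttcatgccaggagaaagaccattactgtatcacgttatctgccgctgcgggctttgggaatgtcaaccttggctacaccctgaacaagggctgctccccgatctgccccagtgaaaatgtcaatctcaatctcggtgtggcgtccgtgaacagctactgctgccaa
Global alignment of coding sequences gave identities of Ly6e with the other members from 42.0% (Ly6k) to 50.0% (Ly6a). By contrast, Ly6c1 and Ly6c2 were 97.7% identical, and Ly6a was 86.4% identical to Ly6i and 82.0% identical to Ly6c1. The opening 120 coding bases of Ly6a, Ly6c1 and Ly6c2 show this closeness, with capitals at the 12 positions where the sequences are not all the same.
Ly6a: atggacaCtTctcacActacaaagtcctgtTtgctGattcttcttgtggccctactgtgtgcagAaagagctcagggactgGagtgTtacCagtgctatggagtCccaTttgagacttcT
Ly6c1: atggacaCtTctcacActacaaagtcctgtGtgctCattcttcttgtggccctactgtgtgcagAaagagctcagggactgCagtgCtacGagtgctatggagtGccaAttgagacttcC
Ly6c2: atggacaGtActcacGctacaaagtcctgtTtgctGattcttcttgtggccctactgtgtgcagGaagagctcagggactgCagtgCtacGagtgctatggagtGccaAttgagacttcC
Of all stretches of 100 bases in the annotated transcripts of Ly6e, 0% occurred in a transcript of another gene. The shared portion was 10.1% for Ly6c1, 5.81% for Ly6c2 and 1.45% for Ly6a, and it was 0% for Ly6d, Ly6g, Ly6i and Ly6k. No gene overlaps Ly6e in the annotation, and no transcript of another gene resembled it at 85% identity or more over at least 200 bases.

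Expression was given by the authors as FPKM, fragments scaled by exon length and by library depth. The depth recovered from the FPKM values was between 18163458 and 24388916 fragments per library. Pgam5, the targeted gene, averaged 14.5 ± 2.27 FPKM in control (SD, n = 3) and was at 4.33, 5.75 and 4.53 FPKM after knockdown, without overlap of the groups. Of 9 macrophage markers, Mertk was listed at 0 and the other 8 were detected, with Cd14 at 461 FPKM and Csf1r at 231 FPKM on average in control cells. Markers of other cells in which Ly6 genes are used were low. The summed FPKM of 10 neutrophil markers ran from 1.47 to 2.23 across control and from 1.61 to 1.84 across PGAM5 KD libraries. Most of it was Csf3r, and Mpo, Elane, Ltf, Ngp, Retnlg and S100a9 were at 0 in all libraries. The 8 lymphocyte markers summed to between 1.41 and 3.37 FPKM, nearly all of it Lck. Cd3e, Cd8a, Ms4a1 and Nkg7 were among those at 0. The 8 markers of Ly6C-high monocytes summed to between 7.21 and 15.9 FPKM, nearly all of it S100a4, and Plac8 and Chil3 were among those at 0. The 5 stem and progenitor markers summed to between 0.958 and 2.72 FPKM, nearly all of it Procr. Kit and Flt3 were among those at 0, while the lists of 5 endothelial and 6 fibroblast markers stayed at or below 0.512 FPKM.

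Ly6e was the member that these macrophages expressed, and its level was 2.18-fold higher in PGAM5 KD cells. Ly6e (ENSMUSG00000022587) lies on the plus strand of chromosome 15 of GRCm38 from 74955051 to 74959905. It had 77.5, 78.5 and 80.2 FPKM in control replicates 1, 2 and 3, and 174, 176 and 166 FPKM in PGAM5 KD replicates 1, 2 and 3. The groups did not overlap. The lowest PGAM5 KD library was 85.6 FPKM above the highest control library, while libraries of the same group lay within 2.72 FPKM of each other in control and within 10.0 FPKM in PGAM5 KD cells. Control cells averaged 78.7 ± 1.38 FPKM (SD, n = 3) and PGAM5 KD cells 172 ± 5.42 FPKM (SD, n = 3).

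**Figure D1:**
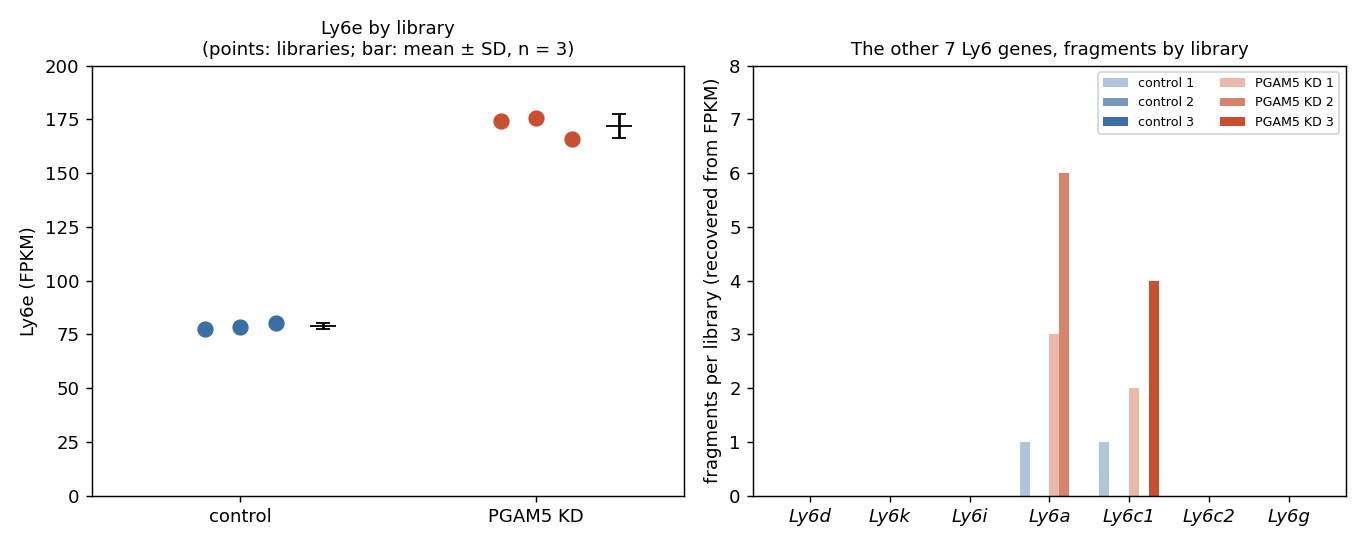
Left, Ly6e in FPKM for each library, with the mean and SD of the 3 libraries per group; right, fragments of the other 7 Ly6 genes in each library, recovered from FPKM. The control libraries of Ly6e sit between 77.5 and 80.2 FPKM and the PGAM5 KD libraries between 166 and 176 FPKM, while no other member exceeds 6 fragments in any library.

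With between 5327 and 15303 fragments per library on Ly6e, counting error was at most 1.37% of the value. The replicates spread by 1.75% of the mean in control and by 3.15% in PGAM5 KD cells. In bulk RNA, more cells that express Ly6e and more Ly6e RNA per cell cannot be told apart.

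On the log2(FPKM + 1) scale the difference of Ly6e was 1.12 with a standard error of 0.03. It was estimated with limma across the 10540 genes with a mean of at least 1 FPKM, the only filter on low values. Ly6e was the 1 member of 8 that passed this filter, which it did in both groups. Other genes were called at an adjusted p-value under 0.05. Over all genes tested 31.7% were called, 16.8% higher and 14.9% lower, so the background of calls in this comparison was high. After scaling to TPM (FPKM rescaled to the same sum in every library), 1088 genes were called higher and 2282 lower, against 1771 and 1575 with FPKM. With the added threshold of an absolute log2 fold change above 1, by which the study defined differential expression, 0.787% of the genes tested were higher, and 1.32% passed in either direction. The groups were fully separated with PGAM5 KD on top, as for Ly6e, for 24.2% of the genes tested. These shares are given as the background of the comparison, and no call is made for Ly6e, because its values here chose the family.

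The change of Ly6e lay far above the middle of all genes. The median log2 fold change of the genes tested was 0.013, and from the 5th to the 95th percentile they ran from -0.46 to 0.49. This median was -0.060 after scaling to TPM and -0.0027 after quantile normalization, so its sign depends on the scaling. There were 76 genes with a larger positive log2 fold change than Ly6e, and 2 of these also had a higher mean FPKM. By mean FPKM over the 6 libraries Ly6e held place 384 of 10540, and it moved from place 649 among the control means to place 272 among the PGAM5 KD means. Its neighbours in that order, Bzw1 above and Cdk4 below, had means of 125 FPKM over the 6 libraries, like Ly6e, but both were above Ly6e in every control library and below it in every PGAM5 KD library.

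**Figure D2:**
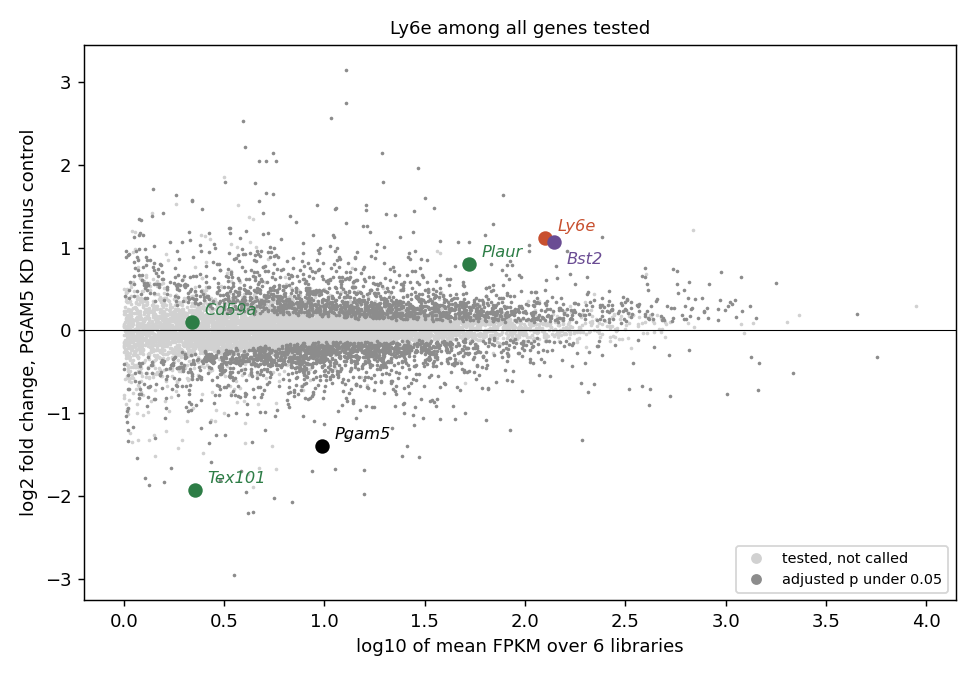
Log2 fold change (PGAM5 KD minus control) against log10 of the mean FPKM for the 10540 genes tested, with genes past an adjusted p-value of 0.05 in dark grey. Ly6e lies at 1.12, close to the GPI-anchored Bst2 at 1.06, while Tex101 lies at -1.94 and the targeted gene Pgam5 at -1.40.

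The size of the difference of Ly6e moved little with the library left out or the scaling. Leaving out single libraries gave log2 fold changes from 1.10 to 1.14. It was 1.05 after scaling to TPM and 1.04 after quantile normalization, the lowest of the 15 alternatives. Voom on the recovered fragments gave 1.12.

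**Figure D3:**
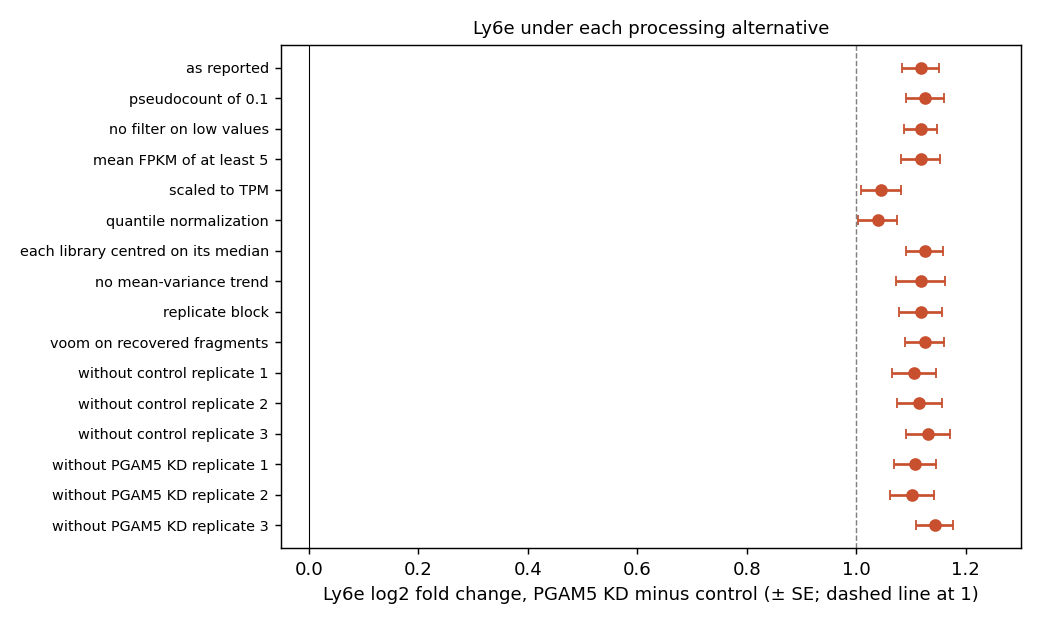
Log2 fold change of Ly6e (PGAM5 KD minus control) with its standard error, as reported and under each of 15 alternatives, with a dashed line at 1. The estimates run from 1.04 to 1.14. All reuse the values of Ly6e that chose the family, so they describe the processing and carry no call.

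The members used as markers of monocytes and stem cells were close to the limit of detection. Ly6a (ENSMUSG00000075602), which encodes Sca-1 and lies from 74994877 to 74998031 on the minus strand, had 1, 0 and 0 fragments in the control libraries and 3, 6 and 0 fragments in the PGAM5 KD libraries. Its highest level was 0.274 FPKM, in PGAM5 KD replicate 2. The libraries of both groups overlapped at 0. The totals were 1 fragment in control and 9 in PGAM5 KD cells, 6 of them in 1 library, so no ratio is given.
Ly6c1 (ENSMUSG00000079018), on the minus strand from 75044018 to 75048830, encodes a form of Ly6C and had 1, 0 and 0 fragments in control and 2, 0 and 4 fragments in PGAM5 KD libraries. The totals were 1 and 6 fragments, and here too both groups held libraries at 0. Without the filter on low values, limma gave log2 fold changes of 0.15 for Ly6a (standard error 0.09) and 0.055 for Ly6c1 (standard error 0.04). On this scale values so far below 1 FPKM are compressed, so the estimates understate any change. In order of level, Ly6e came first by far, and Ly6a and Ly6c1 did not differ from each other beyond the spread of their libraries.

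Ly6c2 (ENSMUSG00000022584), the other Ly6C gene, was at 0 fragments in all 6 libraries. Over the 57867751 fragments of the control group and the 64530206 fragments of the PGAM5 KD group, a count of 0 allows up to 0.0189 and 0.0170 FPKM. This limit covers counting error only. Fragments from the stretches that Ly6c1 and Ly6c2 share could have been dropped or assigned to either gene, since the handling of fragments that fit several places is not given in the sources used here. Most stretches of each gene are not shared, and those of Ly6c2 received no fragment.

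The remaining members were at 0 in every library as well. On the minus strand of the same chromosome, Ly6d lies from 74762056 to 74763620, Ly6k from 74796874 to 74799986, Ly6i from 74979534 to 74983430 and Ly6c2 from 75108158 to 75111970, while Ly6g lies on the plus strand from 75155240 to 75159126. Ly6i (ENSMUSG00000022586), the close relative of Ly6a, was limited to at most 0.0448 FPKM in control and 0.0402 FPKM in PGAM5 KD cells. Ly6g (ENSMUSG00000022582), the neutrophil marker, was limited to 0.0550 and 0.0494 FPKM. Ly6d (ENSMUSG00000034634) and Ly6k (ENSMUSG00000044678) were limited to 0.0697 and 0.0625 FPKM and to 0.0625 and 0.0561 FPKM. A total of 5 members were thus listed at 0 throughout, and Ly6e held at least 99.95% of all member fragments in each library.

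Most protein-coding neighbours of Ly6e were at or near 0. The 8 members span 397 kb, and with 500 kb on each side this region holds 23 other protein-coding genes, of which 14 had 0 fragments in all libraries. Of 14 further genes of the Ly6 and urokinase receptor family in it, 12 were at 0, among them Ly6f, Ly6h, Ly6l, Lynx1 and Gpihbp1, which encodes the lipoprotein lipase transporter of capillaries. Of the 23 genes, 5 passed the filter and 0 were called by limma in either direction, beside 31.7% of all genes tested, which is too few genes to set them apart from that share. Their median log2 fold change was -0.036, beside 0.013 for all genes. Among these, the thioesterase family gene Them6 had 33.9 FPKM in control and 33.0 FPKM in PGAM5 KD cells, a difference of -0.036 on the log2 scale (standard error 0.05) that was not past the threshold (adjusted p = 0.64 by limma). Jrk and Arc, on the same side as Them6, had log2 fold changes of -0.049 and -0.039 (adjusted p = 0.723 and 0.843 from limma). Zfp41 and Top1mt, on the far side of the silent members, had 0.062 and 0.059 (adjusted p = 0.745 and 0.735 from limma). The unadjusted p-values of these genes were all above 0.05.

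**Figure D4:**
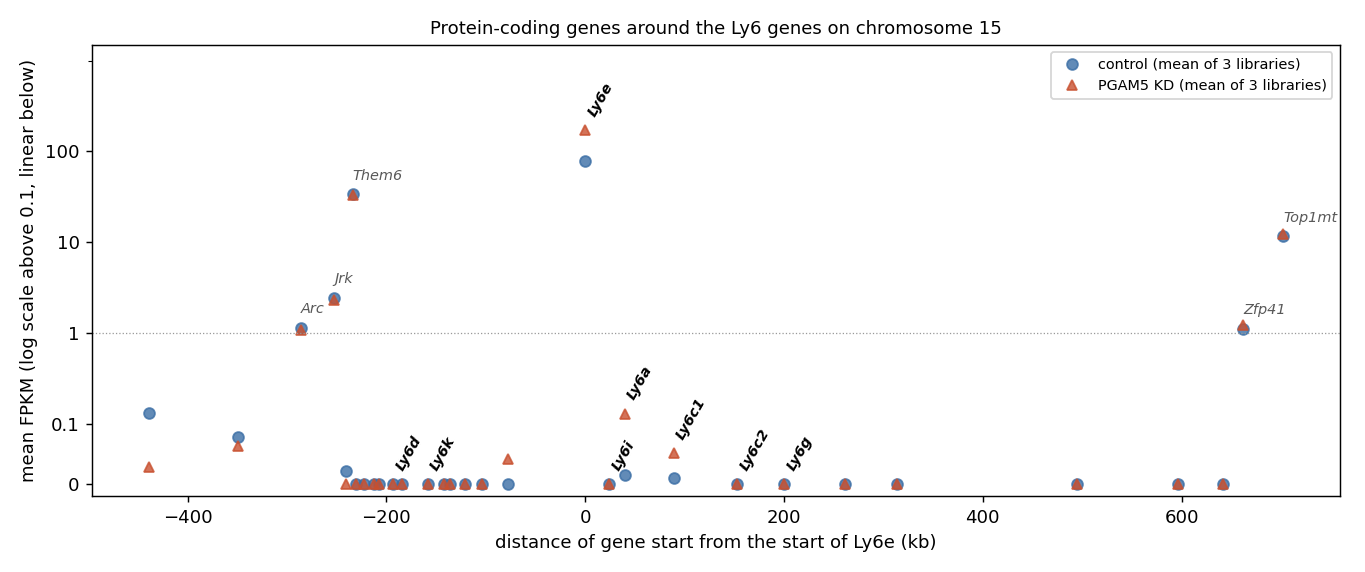
Mean FPKM of control (circles) and PGAM5 KD libraries (triangles) for the protein-coding genes around the Ly6 genes, against the distance of the gene start from that of Ly6e in kb. The vertical axis is logarithmic above 0.1 FPKM and the dotted line marks 1 FPKM. Ly6e is the 1 gene with visibly separate group means above this line, 78.7 and 172 FPKM, and the other labelled members lie near 0.

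Promoter sequences (RefSeq, GRCm38.p6, windows of 300 bases that include the start) could be matched for 3 of the 8 members, Ly6c1, Ly6c2 and Ly6g, in 6 windows. Each gene had a pair of overlapping windows, so these cover 3 separate stretches. Ly6d, Ly6k, Ly6e, Ly6i and Ly6a were not matched. The core of the interferon-stimulated response element, GAAANN followed directly by GAAA, was searched on both strands and was in 0 of the 6 windows, against 3.44% of the 32851 promoters in the table. The gamma-activated site, TTCNNNGAA, was also in 0 of the 6 windows, against 8.30% of all promoters. With 0 matches, no overlap between the motifs arose, and the absence of these letters speaks of these windows alone.

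Of the genes that share the Ly6 fold but lie on other chromosomes, Plaur was higher and Tex101 lower in PGAM5 KD cells. Of 25 such genes listed, 23 were in the annotation, 14 of these were at 0 in all libraries, and 3 passed the filter. A single gene was called in each direction, beside 16.8% higher and 14.9% lower over all genes tested. Plaur, the urokinase receptor, which binds a protease that activates plasminogen at the cell surface, had 37.3, 38.0 and 38.6 FPKM in control and 67.0, 67.7 and 65.3 FPKM in PGAM5 KD libraries. It rose by 0.80 on the log2 scale (standard error 0.03, adjusted p = 2.05e-05 from limma), and its groups did not overlap.
Tex101, a germ cell glycoprotein that binds Ly6k, had 3.19, 4.96 and 4.39 FPKM in control and 0.412, 0.266 and 0.346 FPKM in PGAM5 KD libraries. It fell by 1.94 on the log2(FPKM + 1) scale (standard error 0.15, adjusted p = 0.00018 from limma). This scale compresses values below 1 FPKM, and voom on the recovered fragments gave -3.55 for Tex101. Its partner Ly6k was at 0 in both groups. Cd59a, an inhibitor of the complement attack complex, had 2.04 ± 0.348 FPKM in control and 2.32 ± 0.953 FPKM after knockdown (SD, n = 3), and it was not called (adjusted p = 0.752 from limma). The median of these 3 genes was 0.096, the value of Cd59a, beside 0.013 for all genes tested. The value of Cd59a ran from -0.12 to 0.28 over the alternatives, so its sign is not settled.

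By a rule set on likeness, the genes whose log2(FPKM + 1) followed Ly6e most closely over the 6 libraries were Plaur, Msr1 and Il1b, with Pearson's r of 0.9999, 0.9997 and 0.9995. Msr1, a scavenger receptor, had 11.3, 11.7 and 11.9 FPKM in control and 25.4, 25.2 and 24.0 FPKM in PGAM5 KD libraries. Il1b, which encodes the cytokine IL-1β, had 6.24, 6.73 and 6.55 FPKM in control and 33.8, 32.6 and 30.1 FPKM in PGAM5 KD libraries. The 6 points form a control and a PGAM5 KD cluster, so r mostly restates that each gene differs between the groups, and 138 of 10539 genes reached an r of at least 0.99.

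Ly6 proteins need the GPI anchor to stay on the surface, and few of the genes that build and attach this anchor were called. Of 29 genes listed, 28 were in the annotation and 26 passed the filter. A single gene was called higher and a single gene lower, beside 16.8% and 14.9% of all genes tested, and the median log2 fold change was -0.049, beside 0.013. Pigf, which helps to add ethanolamine phosphate to the anchor, rose by 0.28 (standard error 0.06, adjusted p = 0.0109 from limma), a call that was lost with voom (adjusted p = 0.0891). Pgap1, which trims the anchor after its attachment, fell from 1.82 ± 0.225 to 0.959 ± 0.0717 FPKM (SD, n = 3), by 0.52 on the log2 scale (standard error 0.11, adjusted p = 0.0122 from limma), and voom gave -0.92. Gpaa1, a subunit of the transamidase that attaches the anchor, had 22.8 and 20.5 FPKM (adjusted p = 0.19 from limma). After scaling to TPM, 1 gene of this list was called higher and 3 lower, and the median was -0.13, beside -0.060 for all genes. With voom, 0 genes of this list were called higher and 2 lower.

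Among other proteins held by a GPI anchor, 6 of 23 genes passed the filter, and 4 were called higher and 0 lower after knockdown, beside 16.8% and 14.9% of all genes tested. The median of their log2 fold changes was 0.48, beside 0.013 for all genes. Bst2, which encodes tetherin, a restriction factor induced by interferon like Ly6e, had 90.7, 84.6 and 94.2 FPKM in control and 180, 190 and 197 FPKM in PGAM5 KD libraries. It rose by 1.06 on the log2 scale, close to Ly6e (standard error 0.05, adjusted p = 2.54e-05 from limma). Cd14, the co-receptor for LPS, rose from 461 ± 7.58 to 683 ± 13.4 FPKM (SD, n = 3), by 0.56 on the log2 scale (standard error 0.03, adjusted p = 2.68e-05 from limma), and Cd52, a short glycoprotein of leukocytes, rose by 0.39 (standard error 0.05, adjusted p = 0.0016 from limma). Bst1, an ectoenzyme that makes cyclic ADP-ribose, rose by 0.62 (standard error 0.16, adjusted p = 0.0246 from limma), but its call was lost without control replicate 2 or 3, without PGAM5 KD replicate 1 or 3, and without the filter, and the adjusted p reached 0.0844 over all alternatives. Voom gave a log2 fold change of 1.08 for Bst1. Prnp and Ulbp1 had log2 fold changes of 0.17 and -0.20 and were not called (adjusted p = 0.215 and 0.119 from limma). Cd48 and Cd24a were below the filter, and Thy1 was at 0.

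Ly6e is a target of interferon signaling, and the genes of that pathway were counted beside it. All 16 genes listed passed the filter. In PGAM5 KD cells 9 were called higher and 0 lower, beside 16.8% and 14.9% of all genes tested, and the median log2 fold change was 0.25, beside 0.013 for all genes. With TPM, 7 were higher and 0 lower. The changes with the largest size were those of the transcription factor Irf7 (1.60, standard error 0.05, adjusted p = 7.42e-06 from limma), the cytokine signaling inhibitor Socs3 (1.16, standard error 0.04, adjusted p = 1.54e-05), the ISG15 protease Usp18 (1.07, standard error 0.05, adjusted p = 2.45e-05), Stat2 (0.85, standard error 0.06, adjusted p = 0.00018) and Irf8 (0.68, standard error 0.08, adjusted p = 0.000883). The receptor subunit gene Ifnar1 had 10.1 FPKM in both groups, and Irf9, a partner of Stat2, had 12.4 and 12.7 FPKM, with adjusted p-values of 0.97 and 0.796 from limma. These lists were written with earlier results of these data known, and no set test was run on them.

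**Figure D5:**
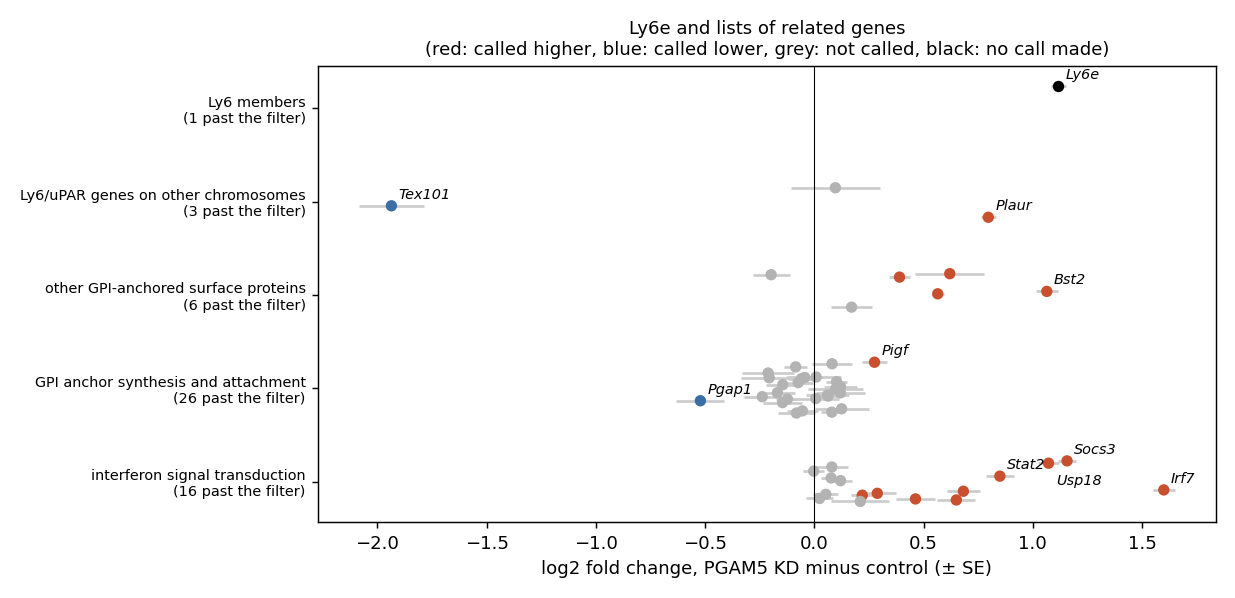
Log2 fold change (PGAM5 KD minus control) with its standard error for each gene past the filter among the Ly6 members and of 4 related lists. Red and blue points were called higher and lower at an adjusted p-value under 0.05 and grey points were not called, while Ly6e, whose values chose the family, is black and carries no call. Ly6e (1.12) and Bst2 (1.06) lie to the right, as do Irf7 (1.60), Socs3 (1.16) and Usp18 (1.07) of the interferon list. Most of the 26 genes of GPI anchor synthesis gather around 0, with Pgap1 at -0.52, and Tex101 (-1.94) lies to the far left.

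Markers of the macrophages themselves also differed, and their part in the difference of Ly6e was not tested. Over the 9 markers the summed FPKM ran from 2804 to 2895 across control and from 2526 to 2546 across PGAM5 KD libraries. Lyz2 was the largest part of this sum, at 1666 FPKM on average in control and 1265 FPKM in PGAM5 KD cells. The direction of the sum is that of Lyz2, while Cd14 rose. Of the 7 markers that passed the filter 4 were called higher and 3 lower, beside 16.8% and 14.9% of all genes tested. The 3 lower were Csf1r, Lyz2 (-0.40 on the log2 scale) and Cd68 (-0.20). By size, the changes on the log2 scale were led by the Fc receptor gene Fcgr1 (1.51, standard error 0.12, adjusted p = 0.000221 from limma), which went from 4.34 to 14.1 FPKM. It was followed by the surface protein gene Adgre1 (0.85, standard error 0.06, adjusted p = 9.68e-05 from limma), the integrin gene Itgam (0.68, standard error 0.10, adjusted p = 0.00322 from limma) and the growth factor receptor gene Csf1r (-0.64, standard error 0.04, adjusted p = 4.71e-05 from limma). The lists of monocyte, neutrophil and lymphocyte markers had 0 genes called by limma, with 1 tested gene each, and Procr in the stem cell list was called higher at 1.16 against 2.25 FPKM (adjusted p = 0.0452 from limma), a call that 7 of the 15 alternatives lost. The log2 fold change of Procr was 0.58, and voom gave 0.94.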

How the data were processed

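RNA-seq of poly(A) RNA from 6 libraries was used, 3 from control and 3 from PGAM5 KD iBMDMs, grouped by their titles. The authors deposited FPKM, 1 table per library, scaled by length and depth. The submitters' processing notes name HISAT2 2.0.5, featureCounts 1.5.0-p3 and mm10. The annotation release, read length, library strandedness and treatment of multiply mapping fragments are not given in the sources used here. Of 54532 identifiers, 54495 were in GENCODE M21 (GRCm38). Multiplying FPKM by exon length and depth gave fragments, which were whole within 0.01 for 96.8% to 97.1% of values below 1000. The libraries held 18163458 to 24388916 fragments.

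Log2(FPKM + 1) was fitted with limma 3.58.1 in R 4.3.3 (two-sided, with a mean-variance trend), keeping 10540 genes whose FPKM averaged 1 or more, and p-values were adjusted by Benjamini-Hochberg. Genes were called at an adjusted p-value under 0.05. The fit was tested on simulated data for 10343 genes, where it recovered 199 of 200 given a 2.5-fold change. The simulation gave all genes the same spread beyond counting error and changed far fewer genes than were called here. It therefore does not bear on the share of genes called. The members, lists and tests were chosen with earlier results of these data known. Named genes are the members, at most 5 called genes per list by size, genes of the chromosome 15 region that passed the filter, and the 3 genes most like Ly6e. Lyz2 and Cd68 were added for the sum of the macrophage markers, and others are examples that were not called. Limits are 3 fragments over a group and cover counting error only. Similarity used blastn 2.17.0 and Biopython 1.88. The alternatives were another pseudocount, other filters, TPM, quantile and median scaling, no trend, a replicate block, voom, and each library left out. Some marker genes are not reported here.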

Additional observations from a re-analysis of the deposited data

How the results depend on the processing

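Ly6e had log2 fold changes from 1.04 to 1.14 over the 15 alternatives. Ly6e alone passed the filter, so the median over the members equalled its value, 1.12. The median was 1.05 with TPM and 1.04 with quantile normalization, and 0.15 without the filter, because Ly6a and Ly6c1 then entered. Of 10540 genes, 139 were differentially expressed, against 261 with a pseudocount of 0.1, 76 of 7092 genes at a mean FPKM of at least 5, 233 with TPM and 283 with voom on recovered fragments. The stricter filter left fewer genes to test, and for the others the cause was not tested. Counts past the adjusted p-value alone stayed within 1.5 times of 3346. Left-out libraries gave from 2342 to 2843 genes. The correlations of same-numbered deviations were -0.02, 0.016 and -0.052, so no shared shift of same-numbered libraries was seen over the genes tested. Whether same-numbered libraries were prepared together is not stated. With a replicate block 2652 genes passed and Ly6e stayed at 1.12. Depth limits Ly6a and Ly6c1, with at most 6 fragments per library, and the members at 0.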

Other observations

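Some Ly6-related genes that were not among the members had fragments in PGAM5 KD libraries alone, and they were chosen after their values were seen. 2010109I03Rik, named Ly6m in RefSeq, lies between Ly6k and Ly6e. It was at 0 in the 3 control libraries and had 0.110, 0.0167 and 0 FPKM in PGAM5 KD replicates 1, 2 and 3, a total of 9 fragments. Spaca4, a sperm protein gene on another chromosome, was at 0 in control and had 0.322, 0 and 0.232 FPKM in PGAM5 KD replicates 1, 2 and 3, also 9 fragments, and Cd59b had 1 fragment in PGAM5 KD replicate 3. These genes were below the filter, both groups held libraries at 0 for each of them, and no test was made. Psca, a further relative in the same region, had 1 fragment in control replicate 1 and 0 elsewhere.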
